A study of Mus musculus with 15 samples.

Results

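The cell cycle genes and cyclin inhibitors of this liver study are 46 genes chosen by symbol: the genes that copy DNA and divide the cell, and 4 brakes on the cyclin-dependent kinases that drive both. All 46 were found among the 16809 genes of the deposited table, and 39 of them held enough reads to be tested among 12658 tested genes. The data are 15 RNA-seq libraries from livers of wild-type mice fed for 6 weeks, with 5 groups of 3 libraries. Control mice ate ordinary feed. Model mice ate a fattening feed made of 78.8% ordinary feed with 10% lard, 10% powdered egg yolk, 1% cholesterol and 0.2% sodium cholate. Each of the 3 other groups was fed a high-fat diet, whose recipe the labels do not give and which is taken to be that of the model group, and was given 1 flavonol by mouth. The doses were 200 mg/kg/day of quercetin, 75 mg/kg/day of myricetin and 100 mg/kg/day of kaempferol. These plant compounds share a ring skeleton and differ in the hydroxyl groups of one ring, of which kaempferol carries the fewest and myricetin the most. Sex, strain, hour of collection and fasting are not stated, and no label ties a library to a mouse of its own. The p-values here set a difference between groups against the spread between libraries, which may not be the spread between mice.

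In a dividing cell, D-type cyclins and then E-type cyclins activate their kinases, E2F factors switch on the genes for DNA copying, the MCM helicase is loaded at origins of replication by CDT1 and CDC6, and CDK1 with cyclins A and B later drives mitosis. The inhibitors p21 (Cdkn1a), p27 (Cdkn1b) and p18 (Cdkn2c) bind cyclin-dependent kinases or their complexes, and the kinase WEE1 keeps CDK1 inactive by phosphorylating it. Most hepatocytes of an adult liver rest outside the cycle and re-enter it after tissue loss. Cdkn1a is a target of p53 in many tissues, and Wee1 is known in mouse liver as a gene under circadian control.

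The members lay at low levels apart from a few. In TPM (a level that corrects for gene length), Tk1 and Pcna led with median levels of 32.2 and 31.9 over the 15 libraries, followed by Cdkn1b at 9.88, Mcm7 at 8.92, Stmn1 at 8.25 and Cdkn1a at 7.40 TPM. Tk1 makes thymidine monophosphate for DNA, PCNA clamps the polymerase to DNA, and stathmin (Stmn1) takes microtubules apart. The 22 members that act in mitosis, which are the mitotic kinases with cyclins A and B and the spindle genes, had median levels between 0.02 and 1.15 TPM when Stmn1 is left aside. The 7 members not tested were Ccnb1, Bub1, Aurkb, Cdc6, Gins2, Cenpe and Hmmr, whose highest count in any library was 14. All levels below are CPM, counts scaled to library size with TMM factors, given within a group in the order of the library numbers, which are 1, 2 and 3 for control, 1, 2 and 5 for model, 2, 5 and 8 for quercetin, 5, 7 and 8 for myricetin and 3, 5 and 8 for kaempferol. Library totals ran from 15853767 to 17576502 counts, so that 1 CPM stood for 15.2 to 18.1 counts and a count of 0 allowed up to 0.166 to 0.198 CPM, which covers counting error only.

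**Figure D1:**
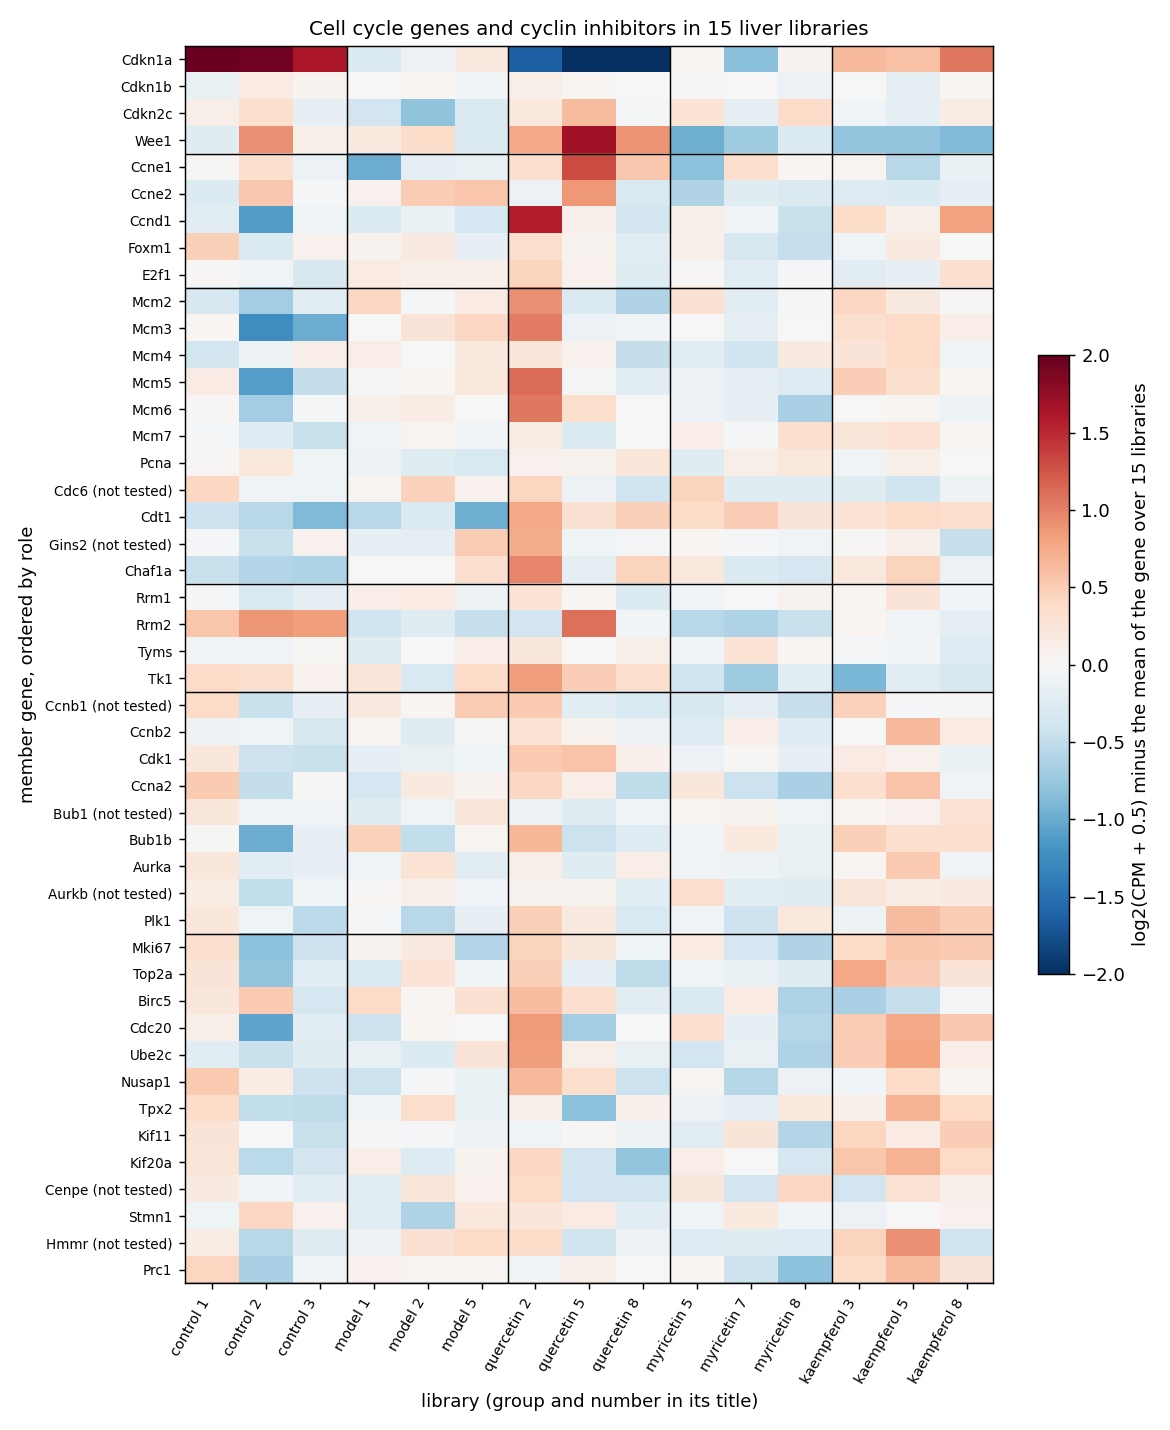
Level of each of the 46 members (rows, by role) in each of the 15 libraries (columns, by group), as log2(CPM + 0.5) minus the gene's mean over the libraries, with colours capped at -2 and 2. Cdkn1a stands out, high in the 3 control libraries and low in the 3 quercetin libraries. Quercetin 2 is the highest of all libraries for 15 of the 39 tested members, with no share of all tested genes given.

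Promoter sequence is shown for 4 members, picked by their results and, apart from Cdkn1a, by their motif matches. Each is a RefSeq window on GRCm38.p6 that runs from 250 bases before to 50 bases after an annotated gene start, 5′ to 3′ on the gene's strand. Cdkn1a (chr17:29090729-29091028, plus strand, the more upstream of its annotated starts) is shown because it changed most. In it the capitals mark CATG followed after 6 bases by CATG again, the core of a pair of abutting p53 half-sites with the bases between them, a motif chosen after this sequence was read. Cdt1 (chr8:122567765-122568064, plus strand) and Mcm3 (chr1:20820263-20820562, minus strand) are replication members that passed a test. They were picked because their windows hold the E2F letters TTTGGCGC, in capitals. Chaf1a, another replication member that passed a test, has a window with no match of these letters. Cdk1 (chr10:69352863-69353162, minus strand) is a mitotic member that passed none, picked because its window holds TTTGAA more than once. TTTGAA is the core of the cell cycle homology region that binds the DREAM and MuvB complexes. It and the E2F letters TTTCGCGC are in capitals. Picked in this way, the windows cannot show whether a motif goes with passing a test.
Cdkn1a: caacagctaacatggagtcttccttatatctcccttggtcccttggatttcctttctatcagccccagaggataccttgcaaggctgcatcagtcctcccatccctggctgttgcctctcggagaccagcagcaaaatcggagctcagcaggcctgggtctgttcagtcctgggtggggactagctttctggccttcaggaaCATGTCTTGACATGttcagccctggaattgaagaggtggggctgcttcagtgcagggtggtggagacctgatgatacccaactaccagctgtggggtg
Cdt1: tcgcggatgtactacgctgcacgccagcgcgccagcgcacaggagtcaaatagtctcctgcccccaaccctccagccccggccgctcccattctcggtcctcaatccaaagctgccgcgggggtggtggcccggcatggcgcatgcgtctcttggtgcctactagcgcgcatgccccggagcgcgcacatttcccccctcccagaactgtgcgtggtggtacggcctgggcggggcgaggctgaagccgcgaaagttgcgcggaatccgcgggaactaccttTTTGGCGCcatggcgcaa
Mcm3: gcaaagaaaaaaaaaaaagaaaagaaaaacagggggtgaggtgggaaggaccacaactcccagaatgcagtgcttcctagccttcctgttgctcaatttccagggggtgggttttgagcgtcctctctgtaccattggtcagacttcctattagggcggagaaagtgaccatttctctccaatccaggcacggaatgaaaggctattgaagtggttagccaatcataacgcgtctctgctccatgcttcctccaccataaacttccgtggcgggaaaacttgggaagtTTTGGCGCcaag
Cdk1: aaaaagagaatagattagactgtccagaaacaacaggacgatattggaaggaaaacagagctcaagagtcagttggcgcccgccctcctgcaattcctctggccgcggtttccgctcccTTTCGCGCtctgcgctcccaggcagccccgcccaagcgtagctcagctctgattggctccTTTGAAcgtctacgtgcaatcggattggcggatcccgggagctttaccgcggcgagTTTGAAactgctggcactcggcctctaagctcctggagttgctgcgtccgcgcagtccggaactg

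The letters TTTGAA, searched on both strands, were found in the windows of 12 of 17 mitotic and spindle members and of 1 of 18 others, against 17.9% of all 32851 windows in the table. They include Cdk1, where they begin 71 and 15 bases before the start, and Mki67, Top2a, Plk1 and Ccnb2. TTTGGCGC was found in 4 members (Cdt1, Mcm3, Mcm5 and Mcm6) and 0.514% of windows, and TTTCGCGC in 4 members (Cdk1, Mcm5, Mcm6 and Mcm7) and 0.323% of windows. In Mcm6 and in Mcm5 matches of both motifs overlap. The E-box CACGTG was found in Cdkn2c, Chaf1a and Tyms and in 7.15% of windows, and the D-box TTATGTAA in 0 members with a window and 0.938% of windows. The p53 half-site core, which reads alike on both strands, was found in 1 member, Cdkn1a, beginning 48 bases before the start, and in 0.712% of windows. These matches describe letters in a window of 35 members. The other 11 are Ccna2, Ccne2, Ccnd1, Mcm4, Aurkb, Gins2, Foxm1, Tpx2, Kif20a, Stmn1 and Wee1.

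The model diet against control asks what the feed did to the liver. Of the 39 tested members, 2 fell and 0 rose at an adjusted p under 0.05 with edgeR's quasi-likelihood test, where 4.46% of all tested genes passed in either direction and 2.27% were lower. They were the inhibitor gene Cdkn1a and Rrm2, the small subunit of the ribonucleotide reductase that makes deoxynucleotides. The median log2 fold change was 0.17 over the tested members and -0.01 over all tested genes. It rested on single libraries: over the tested members it was -0.01 without control 2 and 0.31 without control 1, and 0.07 with a replicate block. None of the 17 tested mitotic and spindle members passed with edgeR or with DESeq2, here or in the 5 other comparisons. At an unadjusted p under 0.05 there was 1 such member higher in quercetin (Cdk1) and 1 lower in kaempferol (Birc5), and 0 in the 4 other comparisons. Of all tested genes, 21.7% had such a p in model against control and 23.1% in quercetin against model. The shares were 11.9% for myricetin, 11.7% for kaempferol and 17% for the 3 flavonol groups against model. The share for the 4 high-fat groups is not given.

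Cdkn1a stood at 40.5, 39.4 and 31.8 CPM in control and at 8.08, 9.07 and 11.3 CPM in model libraries. All control libraries lay above all model libraries. The level was 37.2 ± 4.74 CPM in control and 9.5 ± 1.66 in model (SD, n = 3), 3.92-fold lower in model, with a log2 fold change of -1.97 ± 0.27 (SE) and an adjusted p of 0.00494 by edgeR. Cdkn1a passed in each of 13 alternatives.

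Rrm2 stood at 7.16, 9.15 and 8.76 CPM in control and at 3.43, 3.90 and 3.29 CPM in model libraries. The groups did not overlap, and the level was 2.35-fold lower in model, with a log2 fold change of -1.24 ± 0.30 and an adjusted p of 0.0293 by edgeR. This call was less firm: it was lost in 6 of 13 alternatives (adjusted p from 0.00412 to 0.140), among them the fits without control 2, control 3, model 1, model 2 or model 5. Its partner Rrm1, the large subunit, lay at 7.41 to 9.0 CPM in control and 8.56 to 10.5 CPM in model.

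Among the other inhibitors, Cdkn2c was at 5.96, 6.96 and 4.78 CPM in control and 4.04, 2.91 and 4.35 CPM in model. The groups did not overlap, yet the log2 fold change of -0.65 ± 0.23 had an adjusted p of 0.115 by edgeR. Here and below, overlap between groups of 3 libraries is described and is no test. The share of all tested genes that separate in this way is not given. Cdkn1b stood at 16.9 ± 1.91 CPM in control and 16.6 ± 0.627 in model (n = 3), with a log2 fold change of -0.03 and a 95% interval from -0.26 to 0.20. The 4 inhibitors together summed to 65.3 ± 7.29 CPM in control and 34.2 ± 0.626 in model, and Cdkn1a carried most of that difference.

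Of the 9 tested replication genes, 8 had a positive log2 fold change in model against control, as had 48.8% of all tested genes, and none passed with edgeR or with DESeq2. At an unadjusted p under 0.05 there were 2 higher (Mcm3 and Chaf1a) and 1 lower (Pcna), where 21.7% of all tested genes had such a p. Mcm3, a helicase subunit, was at 4.31, 1.48 and 1.86 CPM in control and 4.23, 5.12 and 5.73 CPM in model. Control 1 lay inside the model range while the 2 other control libraries lay below it, and the log2 fold change of 0.97 ± 0.37 had an adjusted p of 0.134 by edgeR. Without control 1 it passed, with an adjusted p of 0.0144 (0.0144 to 0.405 over its alternatives). Pcna, the sliding clamp of the replication fork, was at 26.7, 30.5 and 24.7 CPM in control and 24.1, 22.0 and 21.0 CPM in model. Each model library lay below each control library, and the log2 fold change of -0.29 ± 0.12 had an adjusted p of 0.184 by edgeR.

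**Figure D2:**
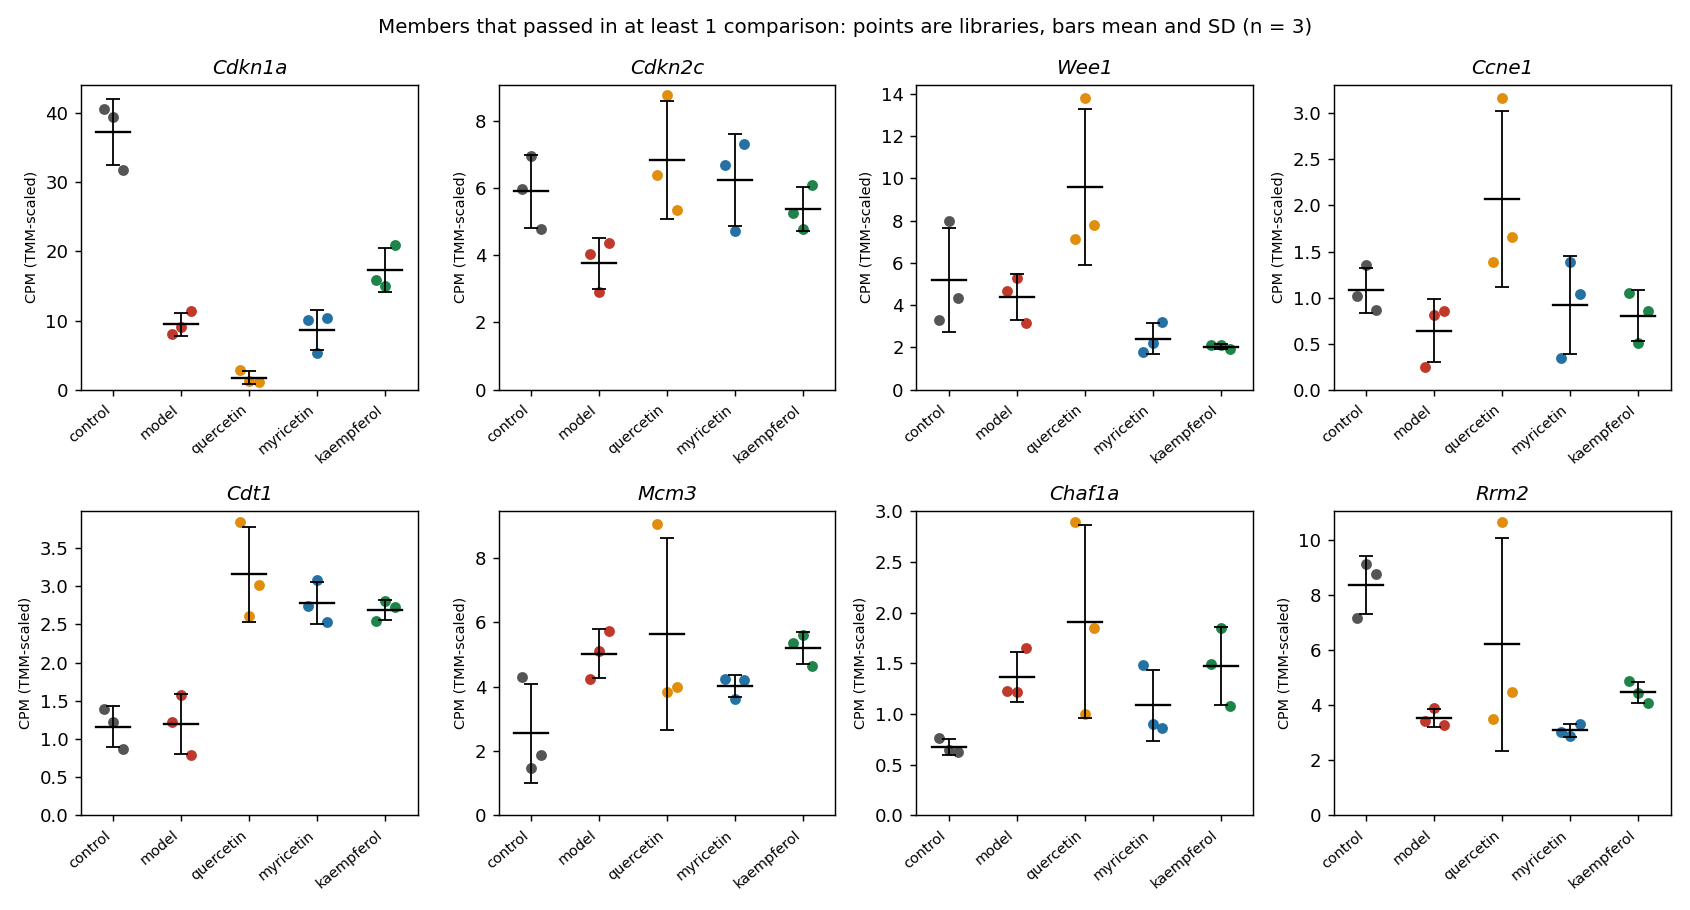
Levels (CPM after TMM scaling, vertical axes from 0) of the 8 members that passed in at least 1 of 6 comparisons, with points for libraries and bars for mean and SD of 3. Cdkn1a falls from 37.2 CPM in control to 9.5 in model and 1.72 in quercetin, and Cdt1 lies above every control and model library in all 9 flavonol libraries.

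Quercetin against model asks what the compound changed on the fattening feed. Of the 39 tested members, 4 rose and 1 fell, where 7.82% of all tested genes passed in either direction, 4.06% higher and 3.76% lower. Cdkn1a fell again, and the members that rose were the licensing factor gene Cdt1, the G1/S cyclin gene Ccne1 and the inhibitor genes Cdkn2c and Wee1. The median log2 fold change of the tested members was 0.17, against 0.01 over all tested genes. It was 0.02 without quercetin 2, 0.36 without quercetin 8 and 0.44 with a replicate block.

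Cdkn1a was at 2.83, 1.22 and 1.11 CPM in the quercetin libraries. All lay below the model libraries at 8.08 to 11.3 CPM, and quercetin 2 was the highest of them. The level was 1.72 ± 0.966 CPM (SD, n = 3), 5.45-fold lower than in model, with a log2 fold change of -2.45 ± 0.33 and an adjusted p of 0.000667 by edgeR. It passed in each of 13 alternatives, with log2 fold changes from -3.01 to -2.22 when 1 library was left out.

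Cdt1, whose protein loads the MCM helicase onto origins, was at 3.84, 2.61 and 3.02 CPM in quercetin and 1.22, 1.57 and 0.790 CPM in model. The groups did not overlap. The level was 2.61-fold higher, with a log2 fold change of 1.38 ± 0.26 and an adjusted p of 0.00474 by edgeR, and it passed in each of 13 alternatives. Its range in control was 0.870 to 1.39 CPM, like that in model.

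Cdkn2c was at 6.39, 8.77 and 5.35 CPM in quercetin, above every model library. The log2 fold change was 0.87 ± 0.23 with an adjusted p of 0.0303 by edgeR. The quercetin libraries overlapped the control libraries at 4.78 to 6.96 CPM. Wee1 was at 7.11, 13.8 and 7.82 CPM in quercetin and 4.65, 5.29 and 3.16 CPM in model. Quercetin 5 stood well above the 2 other quercetin libraries, which also lay above model, and the log2 fold change was 1.13 ± 0.32 with an adjusted p of 0.0430.

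Ccne1, the cyclin that activates CDK2 at the start of DNA synthesis, was at 1.39, 3.16 and 1.66 CPM in quercetin and 0.245, 0.814 and 0.856 CPM in model. The groups did not overlap, model 1 was the lowest and quercetin 5 the highest. The log2 fold change was 1.69 ± 0.49 with an adjusted p of 0.0456 by edgeR. The calls of Cdkn2c, Wee1 and Ccne1 were lost in 7, 6 and 7 of 13 alternatives, with adjusted p up to 0.147, 0.297 and 0.265. All 3 were lost without model 1, model 2, model 5 or quercetin 5, Cdkn2c also without quercetin 2 and Ccne1 also without quercetin 8.

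Ccne2, the gene of the other E-type cyclin, was at 0.834, 2.16 and 0.677 CPM in quercetin and 1.04, 1.57 and 1.65 CPM in model, with a log2 fold change of -0.20 ± 0.41. Quercetin 5 was the highest library for both. Ccnd1, the cyclin that answers growth signals, was at 45.4, 16.1 and 11.3 CPM in quercetin and 12.2, 13.7 and 11.7 CPM in model. Quercetin 2 alone lay far above the rest, and the log2 fold change of 0.96 ± 0.45 had an adjusted p of 0.231 by edgeR.

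Pcna was above all model libraries in each quercetin library without passing, at 27.9, 27.6 and 31.0 CPM against 24.1, 22.0 and 21.0 CPM, with a log2 fold change of 0.37 ± 0.12 and an adjusted p of 0.0810 by edgeR. Rrm2 was at 3.50, 10.7 and 4.49 CPM in quercetin. Quercetin 5 reached the highest level of all libraries while quercetin 2 stayed within the model range, and the adjusted p was 0.114, or 0.0276 without quercetin 2 (0.0276 to 0.684 over its alternatives). Cdk1, the main kinase of mitosis, was at 2.06, 2.16 and 1.42 CPM in quercetin and 1.10, 1.11 and 1.19 CPM in model, without overlap, with a log2 fold change of 0.73 ± 0.30 and an adjusted p of 0.145. The proliferation marker Mki67 overlapped between the groups, at 2.56, 2.11 and 1.60 CPM in quercetin and 1.84, 2.04 and 0.988 CPM in model.

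**Figure D3:**
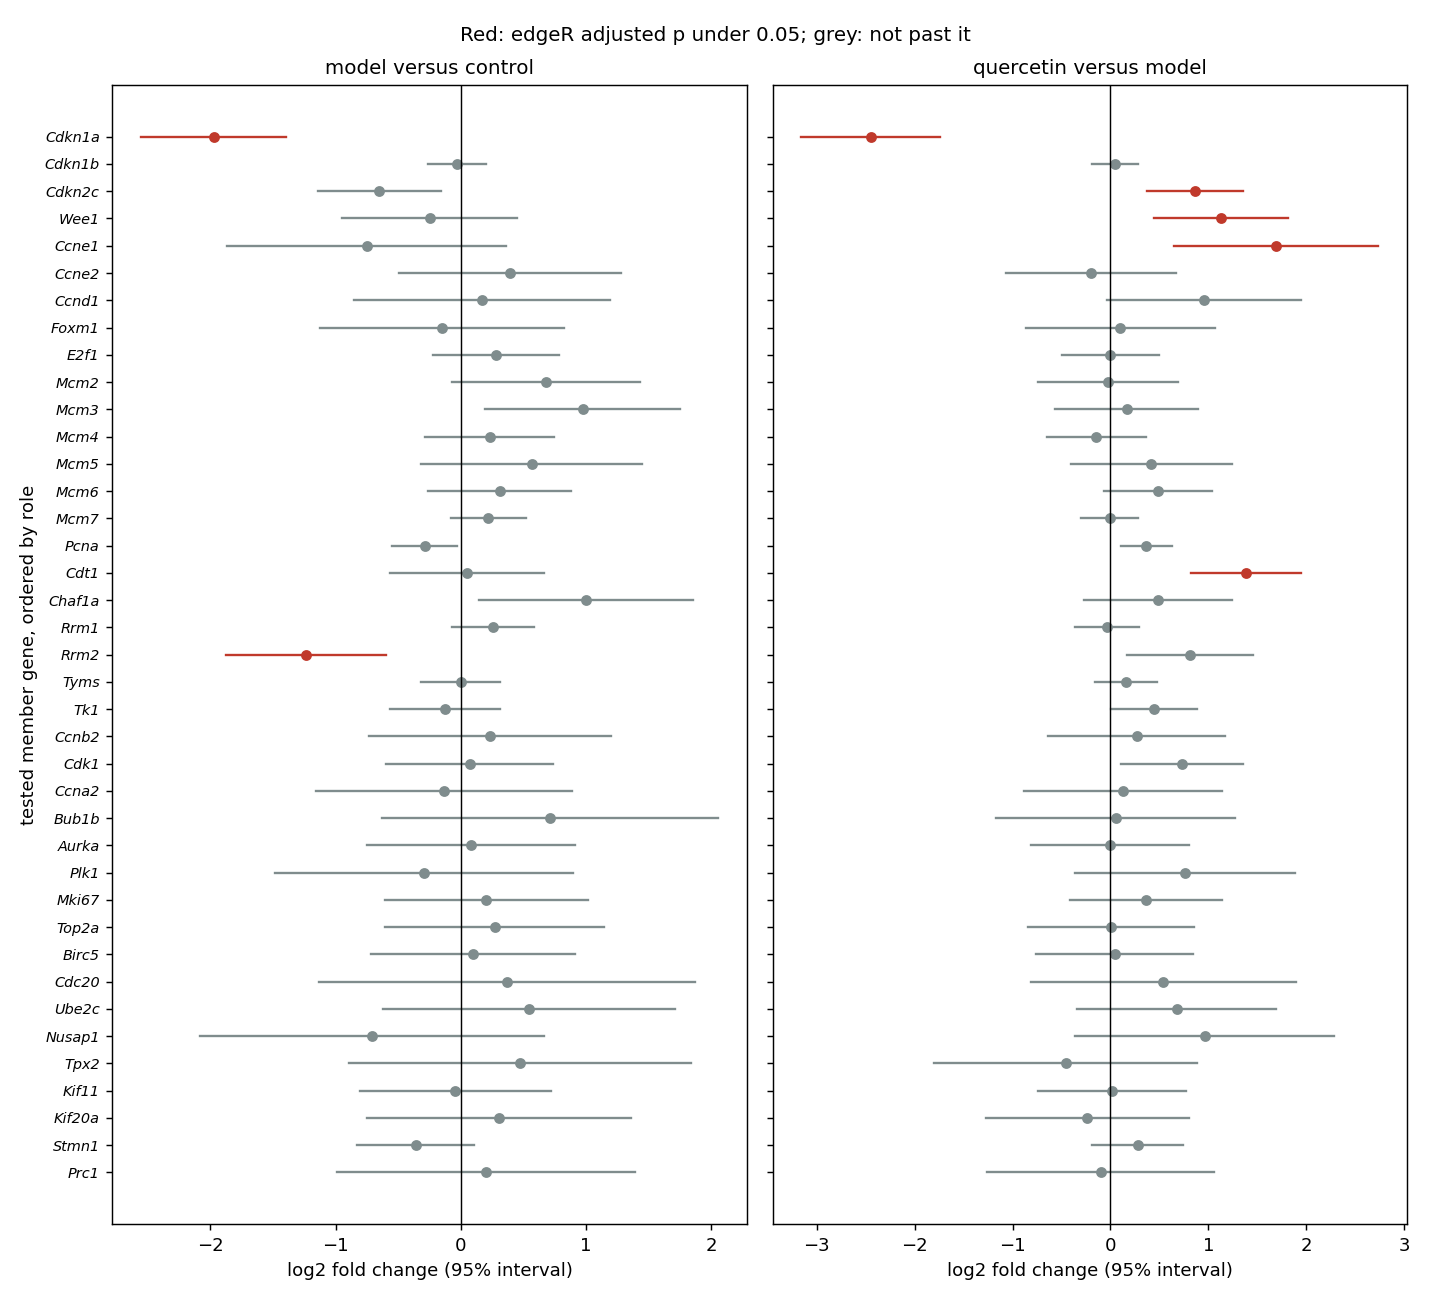
Log2 fold change with its 95% interval for each of the 39 tested members (rows, by role) in model against control and in quercetin against model, red where the edgeR adjusted p is under 0.05. In both panels Cdkn1a lies farthest to the left, at -1.97 and -2.45, and no mitotic or spindle member is red.

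The 3 quercetin libraries were uneven for these genes. Quercetin 2 was the highest of all libraries in 15 of 39 tested members, among them 4 of the 6 MCM genes, Ccnd1 and Tk1. Summed over the 6 MCM genes its level was 53.3 CPM, against 31.7 and 30.7 CPM in quercetin 5 and 8 and 23.4 to 41.5 CPM in the libraries of the 4 other groups. Mcm6 shows it, at 10.3, 6.16 and 4.74 CPM in quercetin and 5.08, 5.29 and 4.74 CPM in model. Quercetin 5 was the highest in 6 members and quercetin 8 in 1. At the other end, control 2 was the lowest library in 10 members. The share of all tested genes that are highest or lowest in a library is not given. These counts therefore do not show a trait particular to the members.

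Myricetin and kaempferol were each set against the same model libraries as quercetin, so the 3 comparisons are not independent, and their doses differ. In myricetin against model, 0 of 39 tested members passed with edgeR, where 0.395% of all tested genes did. At an unadjusted p under 0.05 there were 3 higher and 3 lower members, against 11.9% of all tested genes in either direction, and DESeq2 called 1, Cdt1. In kaempferol against model 0 passed with edgeR, where 0.0395% of all tested genes did. At an unadjusted p under 0.05 there were 3 higher and 4 lower members, against 11.7% of all tested genes, and DESeq2 again called 1, Cdt1.

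Cdt1, the gene of the licensing factor, was at 2.75, 3.08 and 2.53 CPM in myricetin and 2.55, 2.80 and 2.72 CPM in kaempferol. All 6 libraries lay above all control and model libraries. The log2 fold change against model was 1.20 ± 0.27 for myricetin with an adjusted p of 0.0657 and 1.16 ± 0.27 for kaempferol with an adjusted p of 0.102, both by edgeR. For the mean of the 3 flavonol groups against model it was 1.25 ± 0.23 with an adjusted p of 0.00867, and Cdt1 was the 1 member of 39 to pass that comparison, where 2.24% of all tested genes passed and 0.988% were higher. That call was lost in 3 of 19 alternatives, the replicate block and the fits without model 1 or model 5 (adjusted p from 0.000528 to 0.0703).

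Cdkn1a was at 10.1, 5.31 and 10.4 CPM in myricetin, overlapping the model libraries, with a log2 fold change of -0.14 ± 0.28 and a 95% interval from -0.73 to 0.46. In kaempferol it was at 15.8, 15.02 and 20.9 CPM. These lay above every model library and below every control library, and the log2 fold change of 0.87 ± 0.27 had an adjusted p of 0.216 by edgeR. In the authors' deposited table Cdkn1a in kaempferol over model had a log2 fold change of 0.85 and a DESeq2 q value of 0.00326. DESeq2 as run here over all 15 libraries did not call it.

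Wee1 was low in both groups, at 1.77, 2.23 and 3.22 CPM in myricetin and 2.10, 2.10 and 1.93 CPM in kaempferol. The kaempferol libraries lay below all model libraries, while myricetin 8 reached into the model range. The log2 fold changes were -0.86 ± 0.35 and -1.10 ± 0.35, with adjusted p of 0.335 and 0.223 by edgeR. The authors' deposited table gave Wee1 in kaempferol over model a log2 fold change of -1.11 and a DESeq2 q value of 0.0322, and Ccnd1 0.71 and 0.0262. DESeq2 as run here called neither gene in that comparison.

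Cdkn2c was at 6.69, 4.70 and 7.30 CPM in myricetin and 5.26, 4.77 and 6.07 CPM in kaempferol. As in quercetin, each of these libraries lay above every model library. The log2 fold changes were 0.73 ± 0.23 and 0.52 ± 0.23, with adjusted p of 0.197 and 0.400 by edgeR. For the mean of the 3 flavonol groups the value was 0.70 ± 0.20 with an adjusted p of 0.0710.

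Ccne2 was below all model libraries in both groups, at 0.458, 0.724 and 0.689 CPM in myricetin and 0.719, 0.700 and 0.795 CPM in kaempferol, with adjusted p of 0.288 and 0.420 by edgeR. Tk1 was at 18.8, 15.1 and 21.3 CPM in myricetin and 13.1, 21.5 and 19.9 CPM in kaempferol, against 29.7, 20.2 and 32.9 CPM in model. Model 2 lay inside both ranges, and the adjusted p was 0.264 and 0.247. Reads of Tk1, Ccne2 and Chaf1a may be mixed with those of overlapping genes (Afmid, Ints8 and Ubxn6), since strand is not stated. The same holds for other members: 17 of the 46 overlap another annotated gene, among them Ccnd1, Mcm7, E2f1, Ccna2, Foxm1, Top2a, Cdc20 and Aurka. Another 5, Pcna, Tyms, Stmn1, Ccnb1 and Ccnb2, have a named pseudogene or related sequence.

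In kaempferol none of the 17 tested late members passed. At an unadjusted p under 0.05 there were 0 higher and 1 lower, against 11.7% of all tested genes in either direction. By sign alone, 10 of the 11 tested spindle members had a positive log2 fold change against model, with a median of 0.69, and of the 6 tested mitotic kinase and cyclin members 6 did, with a median of 0.49, where 52.1% of all tested genes had a positive one. Markers of most cell types had the same sign. Of the tested B cell markers 7 of 7 were positive with a median of 1.07, 5 of them at an unadjusted p under 0.05. Of the macrophage markers 10 of 10 were, with a median of 0.66, 9 of them at such a p. Positive too were 10 of 10 endothelial, 8 of 10 stellate, 7 of 8 T and NK cell, 6 of 7 erythroid and 4 of 4 neutrophil markers. For hepatocytes it was 4 of 10, for cholangiocytes 3 of 6 and for adipocytes 1 of 2. The part of these cells in the signs of the late members was not tested. Mki67 was at 2.38, 2.80 and 2.72 CPM, above each model library at 0.988 to 2.04 CPM, with a log2 fold change of 0.69 ± 0.36 and an adjusted p of 0.487 by edgeR. Top2a, which untangles DNA before chromosomes part, was at 2.49, 1.97 and 1.59 CPM against 0.919, 1.63 and 1.19 CPM in model, with overlap and an adjusted p of 0.531. Kaempferol 5 was the highest of all libraries in 8 of the 17 tested late members, with no share of all tested genes given. Birc5, a member of the complex that guides chromosome attachment, went the other way, at 0.609, 0.764 and 1.19 CPM against 1.78, 1.28 and 1.65 CPM in model, with an adjusted p of 0.424.

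**Figure D4:**
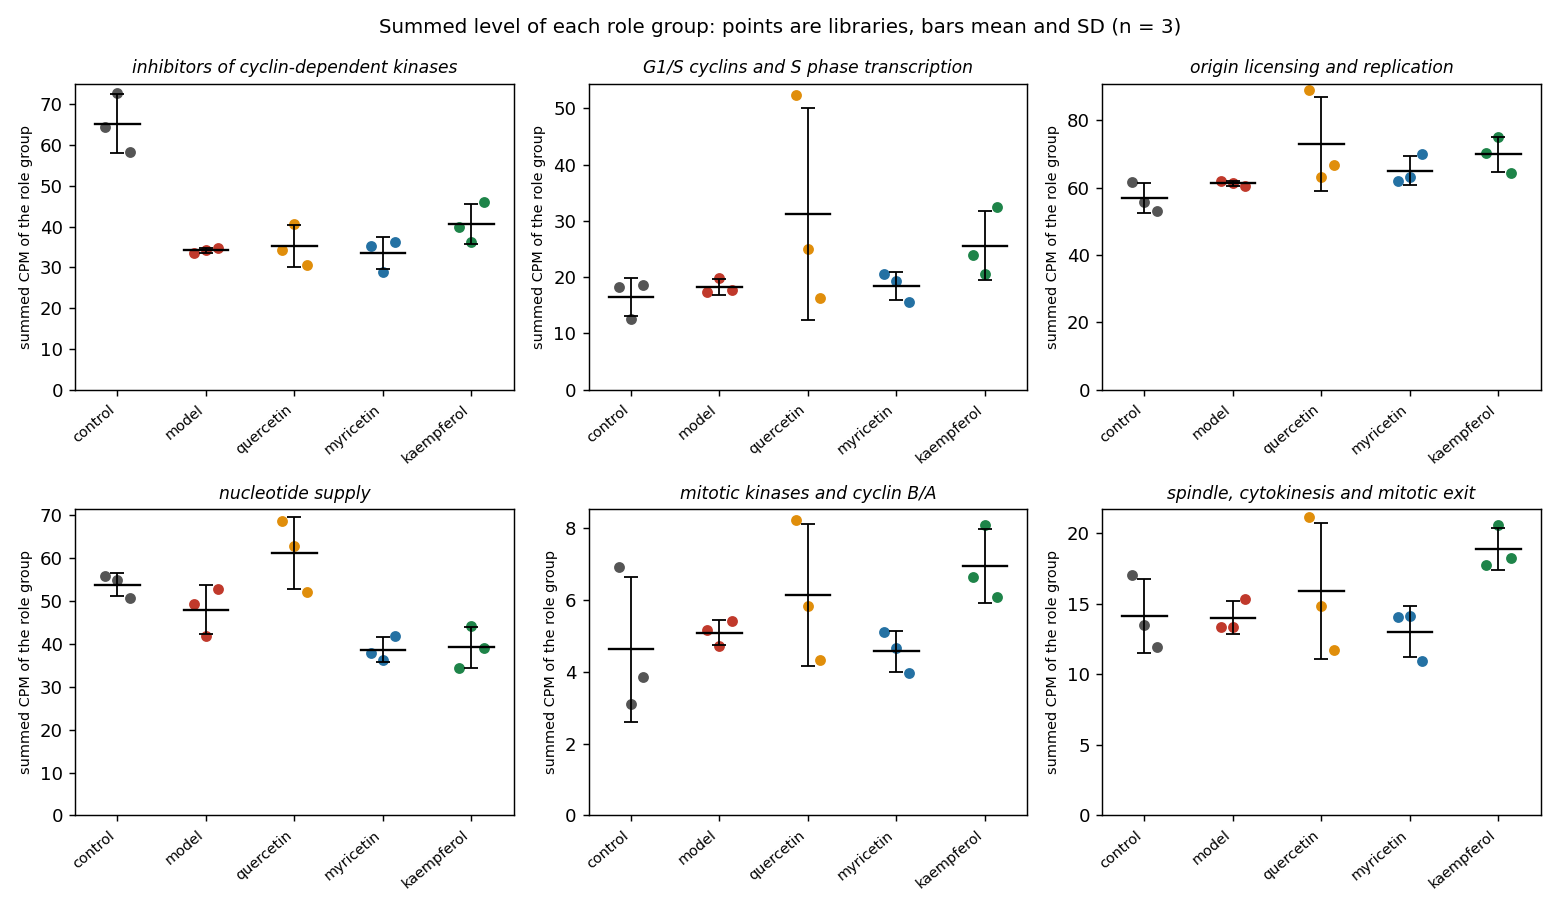
Summed level (CPM after TMM scaling, vertical axes from 0) of the members of each of 6 role groups, with points for libraries and bars for mean and SD of 3. The sum of the inhibitors is 65.3 CPM in control and lies between 28.9 and 46.0 CPM in each of the 12 other libraries, and the sums of the mitotic groups overlap between control and model.

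The mean of the 4 high-fat groups against control uses the most libraries. Of the 39 tested members 3 rose and 2 fell, where 16.3% of all tested genes passed in either direction, 7.79% higher and 8.5% lower. Cdkn1a was lower in all 12 high-fat libraries than in all 3 controls, with a log2 fold change of -2.40 ± 0.19 and an adjusted p of 5.75e-05 by edgeR, and it passed in each of 22 alternatives. The 22 alternatives of this comparison include the compared groups alone, which keeps all 15 libraries and so repeats the main fit. Rrm2 fell, with a log2 fold change of -1.0 ± 0.22 and an adjusted p of 0.00703, although quercetin 5 at 10.7 CPM lay above every control library. Its call was lost with the replicate block and without control 2 (adjusted p from 0.000125 to 0.0963 over 22 alternatives).

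The 3 members that rose act in replication: Cdt1, Mcm3 and Chaf1a, whose protein is the large subunit of the chromatin assembly factor that sets histones on new DNA. Cdt1 had a log2 fold change of 0.99 ± 0.23 and an adjusted p of 0.00870 by edgeR. Its level was 1.16 ± 0.268 CPM in control and 1.20 ± 0.391 in model (SD, n = 3), and the call was lost without control 3 (adjusted p of 0.0765, the highest over its alternatives, from 0.00402). Chaf1a was at 0.761, 0.644 and 0.621 CPM in control, 1.22, 1.22 and 1.65 in model, 2.89, 0.999 and 1.85 in quercetin, 1.49, 0.905 and 0.862 in myricetin and 1.49, 1.85 and 1.08 in kaempferol. All high-fat libraries lay above all controls, with a log2 fold change of 1.07 ± 0.34 and an adjusted p of 0.0396. That call was lost in 9 of 22 alternatives, among them those without control 1, control 2, control 3, model 1, model 5, myricetin 5, kaempferol 3 or kaempferol 5 (adjusted p from 0.0154 to 0.157).

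Mcm3 was at 9.06, 3.83 and 4.00 CPM in quercetin, 4.23, 3.62 and 4.19 in myricetin and 5.37, 5.60 and 4.66 in kaempferol. Control 1, at 4.31 CPM, overlapped these ranges. The log2 fold change was 0.95 ± 0.31 with an adjusted p of 0.0460 by edgeR, lost in 13 of 22 alternatives (adjusted p from 0.00390 to 0.247). They include the fits without control 2, control 3 or any single model, myricetin or kaempferol library. The other MCM genes did not pass: Mcm2, for one, was at 1.93 to 2.86 CPM in control and 3.37 to 4.72 in model, with a log2 fold change of 0.64 ± 0.29 and an adjusted p of 0.146.

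Several other members passed in no comparison, which does not show that they stayed level. Cdkn1b ranged over 14.4 to 18.6 CPM in the 15 libraries, and its 95% interval for the high-fat groups against control was -0.22 to 0.14 on the log2 scale. Tyms, which makes thymidylate, ranged over 5.97 to 8.87 CPM. The E2F factor gene E2f1 ranged over 2.17 to 4.06 CPM, with an interval from -0.22 to 0.59. Its 3 model libraries lay above its 3 control libraries, with a log2 fold change of 0.28 ± 0.24 and an adjusted p of 0.528 by edgeR. Foxm1, the transcription factor of mitotic genes, ranged over 0.230 to 0.887 CPM. Its interval ran from -1.03 to 0.51, so that changes within these bounds were not excluded. Stmn1 ranged over 3.37 to 7.47 CPM, with an interval from -0.55 to 0.17. Ccna2 ranged over 0.402 to 1.59 CPM, with an interval from -0.88 to 0.72, and Ccnb1 over 0.057 to 0.611 CPM, too low to test.

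Other genes of the cycle, taken from a list of 60 of which 43 were tested, were counted for comparison. In model against control 0 passed with edgeR and 0 with DESeq2, and 3 had an unadjusted p under 0.05. Of all tested genes 4.46% passed with edgeR there and 21.7% had such a p. In the 4 high-fat groups against control 1 rose, Gins1 of the replicative helicase, at 0.63 ± 0.19 with an adjusted p of 0.0337 by edgeR, where 7.79% of all tested genes were higher. Myricetin and kaempferol against model gave 0 calls each with edgeR and with DESeq2, and 2 and 6 genes at an unadjusted p under 0.05, against 11.9% and 11.7% of all tested genes. In the 3 flavonol groups against model 0 passed with either tool, and 3 had such a p, against 17% of all tested genes.

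Among 30 tested G1 regulators that are no members, 2 rose in model against control: Cdk6, a partner of D-type cyclins, at 0.72 ± 0.13 (adjusted p of 0.00901 by edgeR), and the antiproliferative gene Btg1 at 1.04 ± 0.19 (0.0108). In quercetin against model 2 fell, Btg1 at -0.88 ± 0.19 (0.0118) and Ccng2, an atypical cyclin linked to arrest, at -1.08 ± 0.26 (0.0206). Myricetin and kaempferol against model gave 0 calls each with edgeR, 1 (Btg1) and 0 with DESeq2, and 5 and 4 genes at an unadjusted p under 0.05, against 11.9% and 11.7% of all tested genes. In the 4 high-fat groups against control 3 rose (Cdk6, Rbl2 and Btg1) and 4 fell (Lin52, Btg2, Lin37 and Mycn), where 7.79% of all tested genes were higher and 8.5% lower. In the 3 flavonol groups against model Lin9 rose and Btg1 fell. By edgeR, 4.46% of all tested genes passed in model against control, 7.82% in quercetin against model and 2.24% in the 3 flavonol groups against model.

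Other p53 targets were counted beside Cdkn1a. Of 18 tested, 1 rose in model against control (Fas, 0.80 ± 0.20, adjusted p of 0.0293 by edgeR) and 0 fell, and DESeq2 called the same gene alone. At an unadjusted p under 0.05 there were 2 higher and 4 lower, where 21.7% of all tested genes had such a p. In quercetin against model 2 rose, Gadd45a at 1.37 ± 0.30 (0.0137) and Bax at 0.55 ± 0.13 (0.0199), and 0 fell, while DESeq2 called 3 higher (these and Plk3) and 1 lower (Fas). At an unadjusted p under 0.05 there were 3 higher and 2 lower, against 23.1% of all tested genes. In the 4 high-fat groups against control 1 fell, Zmat3 at -0.65 ± 0.13 (0.00300), and 0 rose, while DESeq2 called 2 higher (Sesn2 and Bbc3) and 1 lower (Zmat3). Myricetin, kaempferol and the 3 flavonol groups against model gave 0 calls each with edgeR and with DESeq2, and 3, 1 and 4 genes at an unadjusted p under 0.05, against 11.9%, 11.7% and 17% of all tested genes. By edgeR, 4.46% of all tested genes passed in model against control, 7.82% in quercetin against model and 16.3% in the 4 high-fat groups against control.

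Genes of the circadian clock moved with the quercetin and myricetin groups. Of 19 tested, 7 rose and 6 fell in quercetin against model, 3 rose and 2 fell in myricetin, and 1 rose in model against control (Nfil3). By edgeR 7.82%, 0.395% and 4.46% of all tested genes passed in these comparisons. Dbp, a clock output gene, was at 141, 163 and 126 CPM in quercetin, 5.55, 19.8 and 25.2 in myricetin, 1.49, 1.27 and 1.99 in kaempferol, 2.20, 2.79 and 3.03 in model and 2.66, 2.83 and 1.80 in control. Arntl, the clock activator whose level runs opposite to Dbp, was at 3.56, 1.33 and 3.08 CPM in quercetin and 27.2 to 30.9 CPM in model. Nr1d1 was at 86.8 to 151 CPM in quercetin, 73.3 to 134 in myricetin, 14.1 to 24.1 in kaempferol and 4.16 to 7.05 in model. The quercetin libraries thus combined the highest Dbp and the lowest Arntl with the highest Wee1 mean and the lowest Cdkn1a. In myricetin Nr1d1 was high while Wee1 was low. The hour of collection is not given for any group, and the part of the clock genes in the values of Wee1 and Cdkn1a was not tested.

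**Figure D5:**
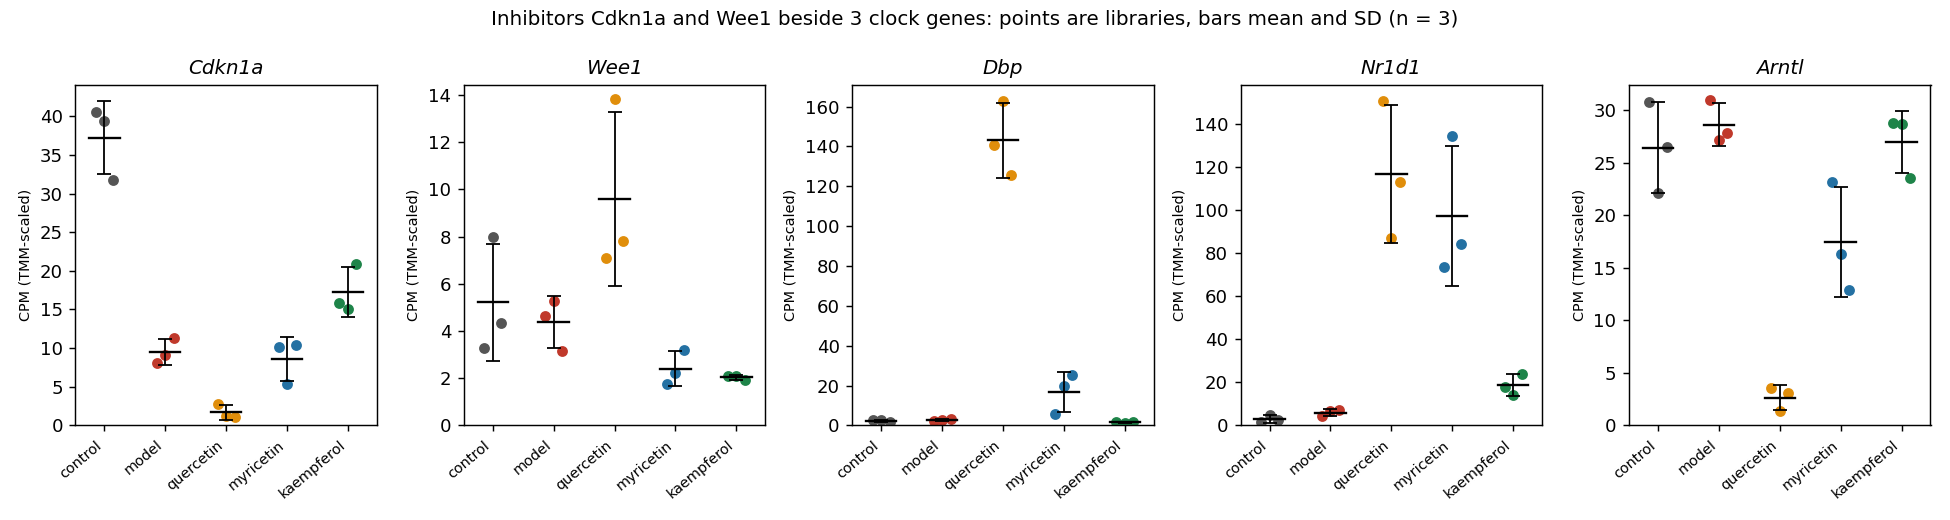
Levels (CPM after TMM scaling, vertical axes from 0) of Cdkn1a and Wee1 beside the clock genes Dbp, Nr1d1 and Arntl, with points for libraries and bars for mean and SD of 3. Quercetin has Dbp at 126 to 163 CPM and Arntl at 1.33 to 3.56 CPM, beside Cdkn1a at 1.11 to 2.83 CPM.

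Liver RNA holds several cell types, and in bulk samples fewer cells of a type and less RNA per cell cannot be told apart. All 10 hepatocyte markers were present, and their sum was 106057 to 119167 CPM in control and 72405 to 111080 CPM in the high-fat libraries. Macrophage markers (10 of 10 present, none at 0) summed to 106 to 180 CPM in control, 236 to 334 in model, 313 to 348 in quercetin, 314 to 432 in myricetin and 393 to 915 in kaempferol. Endothelial markers (10 of 10, none at 0) summed to 150 to 216 CPM in control, 234 to 311 in model, 180 to 265 in quercetin, 298 to 351 in myricetin and 303 to 375 in kaempferol. B cell markers (7 of 8 present) summed to 5.09 to 6.34 CPM in control and 7.5 to 28.7 CPM in the high-fat libraries, and those of T and NK cells (10 of 11) to 4.38 to 13.6 and 8.37 to 19.5 CPM, with Ncr1 at 0 in 4 libraries. Neutrophil markers (11 of 11) summed to 2.91 to 14.4 CPM over all libraries, with Ly6g at 0 in 11. The sums of stellate cells (10 of 10, 148 to 317 CPM), cholangiocytes (7 of 7, 20.9 to 100.3 CPM), erythroid cells (9 of 10, 315 to 995 CPM) and adipocytes (5 of 6, 2.71 to 30.5 CPM, with Adipoq at 0 in 13 libraries) overlapped between control and the high-fat groups together. The part of these cells in the values of the members was not tested.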

How the data were processed

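Liver RNA of 15 libraries was analysed from the deposited gene table. The submitters' processing notes name build GRCm38.p6 and, with no order, RSEM 1.3.1, DESeq2 1.4.5, Bowtie2 2.3.4.3 and HISAT2 2.1.0. The authors deposited expected counts per gene and library, not scaled between libraries, of which 5.37% were not whole to within 1e-09. The authors also deposited TPM, used here to rank members by level. Log2 fold changes and q values (adjusted p-values) of the authors were copied from the deposited table and are named where printed. Another 34 deposited columns were not used.

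Expected counts were rounded, low genes removed with filterByExpr (12658 of 16809 genes left), scaled with TMM and tested in edgeR 4.0.16 (R 4.3.3; quasi-likelihood, robust) over all libraries, 1 mean per group, 10 residual degrees of freedom. Tests were 2-sided, with Benjamini-Hochberg adjustment over all tested genes and a threshold of 0.05, in 6 comparisons. Scripts were tested on simulated data. A standard error is the log2 fold change over the square root of the F statistic, so it and the 95% intervals are approximate. The alternatives were RLE and upper quartile scaling, no filter, no robust step, DESeq2 1.42.0, the compared groups alone, a replicate block and leaving out each library. No 2 libraries held identical values.

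The text names every member that passed, a set of members named whatever their values, and up to 3 passing genes per direction from each other list. Members and lists, among them cell type markers, were chosen with earlier results of these data known. Member positions are RefSeq's, since 8 of 46 deposited spans differed. Some results on genes of the other lists are not reported here.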

Additional observations from a re-analysis of the deposited data

How the results depend on the processing

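The count of members that passed moved by more than 1.5 times under 3 settings and when a library was left out. With the replicate block it was 1 for model against control (2 otherwise), 2 for quercetin against model (5), 2 for the 4 high-fat groups against control (5) and 0 for the 3 flavonol groups against model (1). With DESeq2 it was 1 for myricetin and 1 for kaempferol against model (0 each) and 2 for the 3 flavonol groups (1). With the groups of the comparison alone it was 3 for quercetin against model. When 1 library was left out it ran from 1 to 3 for model against control, from 2 to 5 for quercetin, from 2 to 6 for the 4 high-fat groups and from 0 to 1 for the 3 flavonol groups, and stayed at 0 for myricetin and kaempferol. Cdkn1a passed in every alternative of model against control, of quercetin against model and of the 4 high-fat groups against control, and Cdt1 in every one of quercetin against model.

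Of 2796 values of single genes under an alternative, 2522 kept their direction and side of the threshold, 163 were no longer past it, 6 passed newly, 105 changed sign with neither value past it, and 0 passed values reversed. The number of all genes passing moved by more than 1.5 times with DESeq2 (967 for model against control, 206 for myricetin, 197 for kaempferol, 625 for the 3 flavonol groups), with the block (43, 236 for quercetin, 5, 1, 260 for the 4 high-fat groups and 13), with the compared groups alone (125 for myricetin, 21 for kaempferol) and, for kaempferol, with upper quartile scaling (8) or no filter (18). It also turned on single libraries, so the shares of all genes do too. For model against control (565) it was 82 without control 2, 123 without control 3, 165, 319 and 83 without model 1, 2 and 5, and 919 without control 1. For the 4 high-fat groups (2062) it was 675 without control 2 and 725 without control 3. For quercetin (990) it was 434, 429 and 602 without model 1, 2 and 5 and 546 without quercetin 5. For the 3 flavonol groups (284) it was 76, 62 and 91 without model 1, 2 and 5 and 182 without kaempferol 3. It ran from 13 to 65 for myricetin (50) and from 0 to 39 for kaempferol (5).

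The numbers in the titles were not taken to pair libraries. Over 14 pairs with the same number the correlation of deviations from the group means ran from -0.29 to 0.11, and was over 0.1 in 2. The replicate block was built from these numbers and uses up residual degrees of freedom. It matches no stated feature of the design, so a call lost under it does not show an effect of pairing. Most mitotic members held few counts, so that their intervals are wide.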
